A study of Mus musculus with 6 samples.

Results

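The 9 genes described here start, sense or restrain blood clotting at the cell surface and were read by symbol from an expression table of 34745 genes. They are *F2r*, *F2rl2*, *F2rl3*, *F3*, *Thbd*, *Procr*, *Tfpi*, *Vwf* and *Plat*, and all 9 symbols were found once each. The table comes from RNA-seq of cardiac fibroblasts of the left ventricle, taken on Day 7 after myocardial infarction (MI) by ligation of a coronary artery. There were 3 libraries labelled KO, from KDM5B-KO mice, and 3 labelled WT, from their littermates. All donors were described as male mice of 8 to 10 weeks on a C57BL/6 background, and every animal in both groups had the infarct, so no library gives the uninjured state. The knockout was made with CRISPR/Cas9 in the whole animal and removes the bases of *Kdm5b* that hold the JmjC domain, with a frameshift. It is therefore not restricted to fibroblasts. Neither the number of animals behind a library nor a separate isolation for each is given, so the tests measure the spread between these libraries.

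Thrombin is the protease at the end of the clotting cascade. Tissue factor, the product of *F3*, starts the cascade on exposed cells, and TFPI, the product of *Tfpi*, blocks that step. Thrombin signals to cells by cutting protease-activated receptors (PARs), of which PAR1, PAR3 and PAR4 are encoded by *F2r*, *F2rl2* and *F2rl3*. Thrombomodulin (*Thbd*) and the endothelial protein C receptor (*Procr*) turn thrombin from a clotting enzyme into the activator of the anticoagulant protein C. Von Willebrand factor (*Vwf*) is stored by endothelial cells, tethers platelets and carries factor VIII, while tissue plasminogen activator (*Plat*) starts the breakdown of fibrin.

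The libraries held 12025403 to 15329427 counts on genes, and the 14084 genes that passed a filter on low counts were tested by the quasi-likelihood method of edgeR after TMM scaling. Levels are given as TMM-normalized CPM, the counts scaled to a common library size, for one gene across libraries, and as deposited FPKM, which also divides by gene length, where genes are set side by side. *Kdm5b* itself had 98.1 to 107 CPM in the KO-labelled libraries and 108 to 129 CPM in WT-labelled ones, a log2 fold change of -0.22 (adjusted p = 0.0574 from edgeR), so the groups are called by their labels. This count covers the whole gene and not the deleted part alone. The fibroblast marker genes were abundant in every library, with a summed 27066 to 31556 CPM in the KO-labelled libraries and 37852 to 40285 CPM in WT-labelled ones. The endothelial marker genes summed to 2437 to 3190 CPM and 896 to 908 CPM, respectively. In such bulk RNA, a change in the number of cells of a type and a change of RNA per cell cannot be told apart.

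The genes that move thrombin toward protein C, *Procr* and *Thbd*, and the low receptor genes *F2rl3* and *F2rl2* were higher in the KO-labelled libraries, as was *Vwf*. *F3* and *Plat* were lower, and *F2r* and *Tfpi* did not pass the threshold. That is 5 genes higher and 2 lower of 9 at an adjusted p under 0.05 (edgeR), where 30.2% of all genes tested were called, 17.7% higher (2488 genes) and 12.5% lower (1760 genes). Another scaling moved that split, to 2210 higher and 2263 lower with upper-quartile normalization. In CPM the labels did not overlap in 8 of the 9 genes, all but *F2r*, against 47.0% of all genes tested. In FPKM *F3* overlapped and *F2r* did not. *F2rl2* and *F2rl3* passed the filter through the KO-labelled libraries alone, so they had to differ to be tested at all. The counts over the 9 genes are given as a description.

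**Figure D1:**
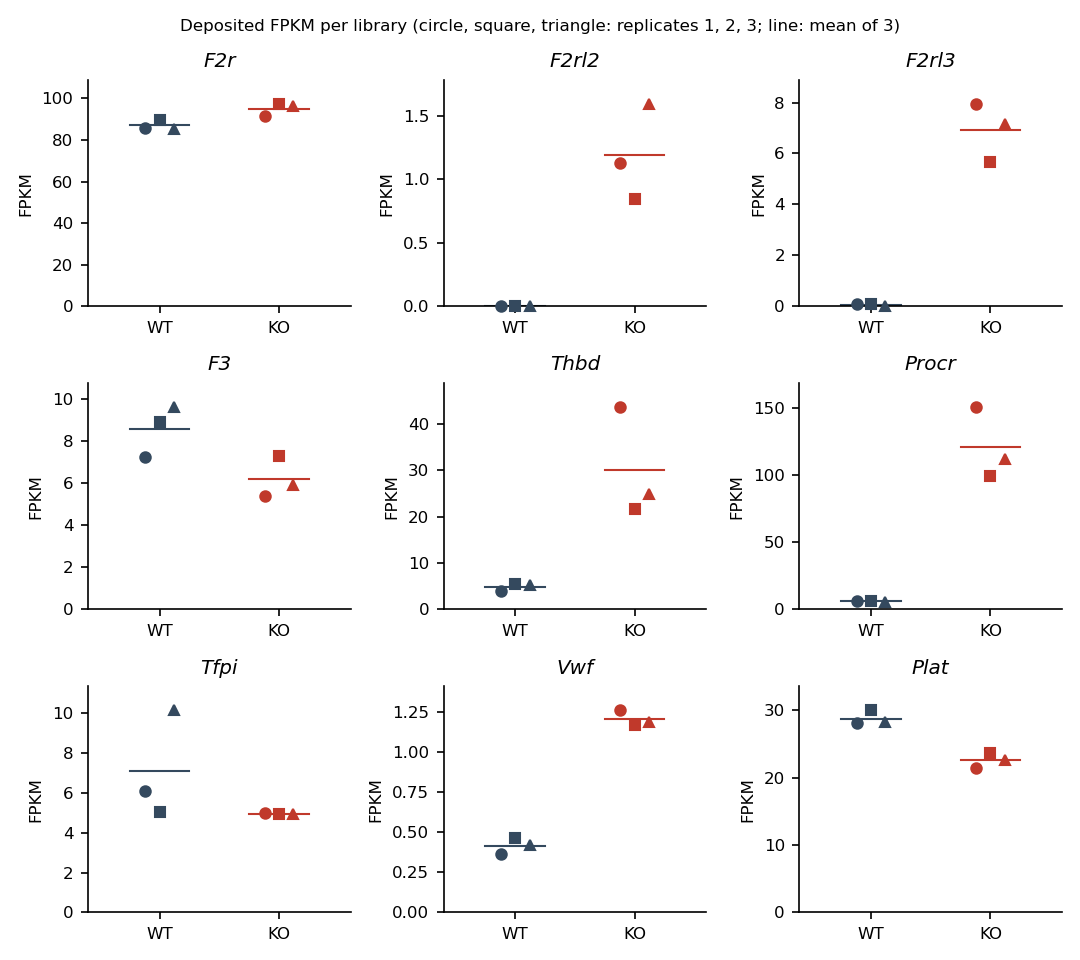
Deposited FPKM (y axis, from 0) of the 9 genes in each library, with the WT label in dark blue, the KO label in red, circles, squares and triangles for replicates 1, 2 and 3, and lines for the mean of 3. *Procr* and *Thbd* stand apart between the labels with a wide spread in KO, and 1 library labelled WT stands high for *Tfpi*. In FPKM *F3* overlaps (7.31 in KO replicate 2, 7.25 in WT replicate 1), and *F2r* does not (91.3 to 97.1 in KO, 85.4 to 89.6 in WT).

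For 6 of the 9 genes the table of RefSeq promoters used here (GRCm38.p6) holds the bases before the transcription start, and 5 of these stretches are shown because they set the receptor genes, *Procr* and *F3* side by side. Each ends before the first base of the gene in both RefSeq and the deposited table, and runs 5′ to 3′ on the strand of the gene. They are chr13:95618467-95618716 on the minus strand, and chr13:95696670-95696852, chr8:72761409-72761658, chr3:121723287-121723536 and chr2:155750967-155751116 on the plus strand. Capitals mark matches on either strand. The letters searched were TGANTCA for AP-1 factors and GGGCGG for the GC box of Sp factors. Krüppel-like factors were searched as CACCC, ETS factors by the core CAGGAA, and GATA factors by the letters AGATAA.
F2r: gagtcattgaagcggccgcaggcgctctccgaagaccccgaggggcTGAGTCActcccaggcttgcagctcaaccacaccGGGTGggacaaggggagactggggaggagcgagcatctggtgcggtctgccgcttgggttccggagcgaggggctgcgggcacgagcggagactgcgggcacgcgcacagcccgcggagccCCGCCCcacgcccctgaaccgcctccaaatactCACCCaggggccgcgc
F2rl2: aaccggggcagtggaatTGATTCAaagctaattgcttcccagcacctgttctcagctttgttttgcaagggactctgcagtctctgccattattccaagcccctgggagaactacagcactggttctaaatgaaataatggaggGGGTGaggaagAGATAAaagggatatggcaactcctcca
F2rl3: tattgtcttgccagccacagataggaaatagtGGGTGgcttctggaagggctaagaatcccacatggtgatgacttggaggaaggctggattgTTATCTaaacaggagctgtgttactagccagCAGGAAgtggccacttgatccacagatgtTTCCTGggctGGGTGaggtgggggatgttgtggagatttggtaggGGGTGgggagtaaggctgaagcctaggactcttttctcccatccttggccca
F3: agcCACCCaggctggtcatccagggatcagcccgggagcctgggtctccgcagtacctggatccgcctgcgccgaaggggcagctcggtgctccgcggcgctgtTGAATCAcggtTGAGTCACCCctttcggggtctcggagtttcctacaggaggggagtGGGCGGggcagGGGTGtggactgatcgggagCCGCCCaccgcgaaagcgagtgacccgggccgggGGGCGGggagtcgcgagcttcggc
Procr: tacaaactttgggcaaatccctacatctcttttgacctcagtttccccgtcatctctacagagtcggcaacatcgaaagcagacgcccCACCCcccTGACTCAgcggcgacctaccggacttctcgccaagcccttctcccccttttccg

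The stretches before *F2rl3* and *F2rl2*, which were near 0 in the WT-labelled libraries, held 0 and 1 CpG in 250 and 183 bases, where the medians over the 32851 promoters of the RefSeq table were 6.0 and 4.0 at those lengths. Those before *F2r* and *F3*, which were counted in every library, held 24 CpG each in 250 bases. That before *Tfpi*, which is not printed and was also counted in every library, held 3 CpG in 234 bases, against a median of 5.0. The stretch before *Procr* held 9 CpG in 150 bases, against a median of 3.0. TGANTCA was found before *Procr* (1 match, where 4.0% of promoters of this length have any), *F2rl2* (1 match, 5.0%), *F2r* (1 match, 6.7%) and *F3* (2 matches, 6.7%), and not before *F2rl3*. AGATAA was found once each before *F2rl3* and *F2rl2* (10.0% and 7.8% of promoters), and CAGGAA only before *F2rl3* among the 5 shown (2 matches, 25.7%). GGGCGG was found before *F2r* and *F3* (1 and 3 matches, 32.7%), and CACCC before all 5, as it is in 35.2% to 52.0% of promoters at these lengths. In *F3* one TGANTCA match overlaps a CACCC match. TGACGTCA, the CRE that binds ATF factors, was searched too and is in none of the 5, where 0.4% to 1.5% of promoters of these lengths hold it. These are matches of letters, and no binding or histone mark was measured here.

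*F2r* (ENSMUSG00000048376, chromosome 13 from 95601804 to 95618459 in mm10) encodes PAR1, the main thrombin receptor of fibroblasts. It stood at 297, 320 and 315 CPM in KO replicates 1 to 3 and at 287, 301 and 286 CPM in WT replicates 1 to 3. KO replicate 1 lay below WT replicate 2, so the labels overlapped in CPM. In FPKM they did not, with 91.3 to 97.1 in the KO-labelled libraries and 85.4 to 89.6 in WT-labelled ones. The log2 fold change was 0.09 (95% interval -0.02 to 0.20, adjusted p = 0.174 from edgeR). By mean FPKM *F2r* was above 97.3% of the genes tested.

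*F2rl3* (ENSMUSG00000050147, chromosome 8 from 72761880 to 72763874) encodes PAR4, best known as a thrombin receptor of mouse platelets. It had 167, 132 and 192 counts in the KO-labelled libraries, and 2, 2 and 0 counts in WT-labelled ones. The gene was thus nearly uncounted in each library with the WT label and present in all 3 with the KO label. Over the summed libraries the ratio was 132 (95% exact interval 51.1 to 485, counting error only). In CPM, 9.90 to 13.7 in the KO-labelled libraries stood against 0 to 0.140.

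*F2rl2* (ENSMUSG00000021675, chromosome 13 from 95696853 to 95702739) encodes PAR3, a thrombin binding partner of PAR4 that signals little by itself. It had 34, 28 and 61 counts in the KO-labelled libraries and 0 in each library labelled WT. Against a floor of 3 counts over the 3 libraries labelled WT, its summed counts were at least 44.0-fold higher. This takes the KO-labelled counts as given, without their counting error or the spread between libraries. Its level remained low in the KO-labelled libraries, at 0.844 to 1.59 FPKM. The gene lies inside *Iqgap2*, which is on the other strand and had 7.95 to 9.93 CPM with the KO label and 8.74 to 9.81 CPM with the WT label, a log2 fold change of -0.06 (adjusted p = 0.777 from edgeR). The kit keeps strand, but whether the counting used it is not given.

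A further receptor gene lies nearby on chromosome 13. *F2rl1*, which encodes the trypsin receptor PAR2 and lies at 95511732 to 95525240, had 3.19, 3.53 and 4.0 CPM in the KO-labelled libraries and 4.62, 5.25 and 4.91 CPM in WT-labelled ones. The labels did not overlap, but the log2 fold change of -0.46 did not pass the threshold (adjusted p = 0.0654 from edgeR). That call depends on the processing. *F2rl1* passed with upper-quartile normalization (-0.50, adjusted p = 0.0477 from edgeR) and with limma on log2(FPKM + 1) and log2(FPKM + 0.1) (adjusted p = 0.0376 and 0.0408), and was at -0.08 with libraries scaled on cardiomyocyte and macrophage markers (0.724, edgeR). The adjusted p had a range of 0.0376 to 1 across the alternatives.

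The 4 receptor genes were set side by side as shares of their summed FPKM, which was 101 to 107 in the KO-labelled libraries and 87.1 to 91.6 in WT-labelled ones. *F2r* took 98.0% ± 0.0782 (SD, n = 3) of it with the WT label and 91.0% ± 1.40 with the KO label. *F2rl3* took 0.0904%, 0.0839% and 0% in the WT-labelled libraries and 7.81%, 5.42% and 6.71% in KO-labelled ones. *F2rl2* took 0% with the WT label and 0.804% to 1.49% with the KO label, and *F2rl1* took 1.90% to 2.05% and 1.16% to 1.38%. None of these 4 shares overlapped between the labels. They are parts of one sum and so not independent of each other, and they are given as a description: the FPKM of *F2r* itself was 94.9 on average with the KO label and 86.9 with the WT label. *F2r* thus remained the main receptor transcript in every library, while the small remainder was mostly *F2rl1* with the WT label and mostly *F2rl3* with the KO label.

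**Figure D2:**
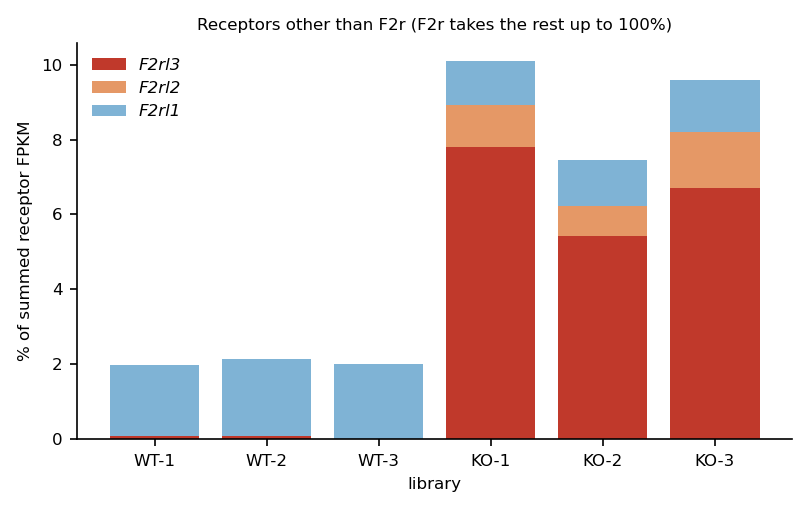
Share of the summed FPKM of the 4 PAR genes (y axis, %) taken by *F2rl3* (red), *F2rl2* (orange) and *F2rl1* (blue) in each library, with *F2r* taking the rest. The stacks reach about 2% with the WT label and hold mostly *F2rl1*, and with the KO label *F2rl3* takes 5.42% to 7.81%.

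*Procr* (ENSMUSG00000027611, chromosome 2 from 155751117 to 155755471) encodes the receptor that presents protein C to thrombin, and was the most abundant of the 9 genes per length in the KO-labelled libraries. It stood at 560, 374 and 419 CPM in KO replicates 1 to 3 and at 24.99, 24.9 and 22.4 CPM in WT replicates 1 to 3. Every library labelled KO was far above every library labelled WT, and KO replicate 1 was the highest. KO over WT gave a log2 fold change of 4.23 (SE 0.16, adjusted p = 2.8e-06 from edgeR), or 18.7-fold, and 0.923% of the genes tested had a larger one. In FPKM, *Procr* went from 6.31 ± 0.386 (SD, n = 3) to 121 ± 26.6 and passed *F2r* in each library labelled KO.

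*Thbd* (ENSMUSG00000074743, chromosome 2 from 148404466 to 148408188) stood at 160, 80.3 and 91.6 CPM in KO replicates 1 to 3 and at 15.1, 20.7 and 19.8 CPM in WT replicates 1 to 3. Again KO replicate 1 was highest, and the labels did not overlap. By edgeR the log2 fold change was 2.57 (SE 0.26, adjusted p = 2.7e-04), or 5.94-fold, and without KO replicate 1 it was 2.22. The log2 ratio of *Thbd* to *Procr* in FPKM was -0.71, -0.25 and -0.16 in the WT-labelled libraries and -1.79, -2.20 and -2.17 in KO-labelled ones. The difference of -1.69 left no overlap between the labels (p = 0.1 by an exact two-sided permutation test, which 3 libraries against 3 cannot go below, and 0.14 after adjustment over 7 shares and ratios). Protein C itself (*Proc*) had no count in any library, and its cofactor protein S (*Pros1*) had a log2 fold change of 0.09 (adjusted p = 0.34 from edgeR). Prothrombin (*F2*), the liver-made precursor of thrombin, reached at most 0.164 CPM.

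*Vwf* (ENSMUSG00000001930, chromosome 6 from 125546774 to 125686679) stood at 24.6, 23.1 and 23.3 CPM in KO replicates 1 to 3 and at 7.35, 9.35 and 8.46 CPM in WT replicates 1 to 3. The labels stood apart with little spread inside either, and KO replicate 1 was the highest by a small margin. Per length the gene was low, with 1.21 ± 0.0480 FPKM (SD, n = 3) against 0.418 ± 0.0488 FPKM. Its log2 fold change of 1.5 (SE 0.11, adjusted p = 5.0e-05 from edgeR) lay within the range of the 20 endothelial marker genes, of which 13 had a larger value, such as *Pecam1* (3.98), *Kdr* (4.23) and *Cdh5* (2.31), and 7 a smaller one, such as *Emcn* (0.92), *Tek* (0.53) and *Eng* (-0.02). The FPKM of *Vwf* per FPKM of *Pecam1* was 0.0784, 0.105 and 0.107 in the WT-labelled libraries and 0.0155, 0.0203 and 0.0167 in KO-labelled ones. Per *Cdh5* it was 0.0205 to 0.0235 with the WT label and 0.0108 to 0.0150 with the KO label. For *Thbd* the quotient depends on the marker: per *Pecam1* it was 0.859 to 1.34 with the WT label and 0.349 to 0.534 with the KO label, but per *Cdh5* 0.225 to 0.280 and 0.272 to 0.372, which overlap. For *Procr* it was 1.40 to 1.49 and 1.58 to 1.85 per *Pecam1*, and 0.312 to 0.367 and 1.23 to 1.29 per *Cdh5*. These quotients were chosen after the values were seen and carry no test.

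*F3* (ENSMUSG00000028128, chromosome 3 from 121723537 to 121735048) stood at 17.9, 24.5 and 19.7 CPM in KO replicates 1 to 3 and at 24.6, 30.4 and 32.7 CPM in WT replicates 1 to 3. KO replicate 2 and WT replicate 1 almost met, and in FPKM they overlapped (7.31 and 7.25). The log2 fold change was -0.50 (SE 0.14, adjusted p = 0.0312 from edgeR), or 1.42-fold lower, and this call was the weakest of the 7. It was lost without KO replicate 1 (-0.40, adjusted p = 0.0895), without KO replicate 3 (-0.46, 0.0965), without WT replicate 2 (-0.47, 0.0845) and without WT replicate 3 (-0.42, 0.101).

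*Tfpi* (ENSMUSG00000027082, chromosome 2 from 84432855 to 84476775) stood at 58.0, 58.0 and 57.3 CPM in KO replicates 1 to 3 and at 72.2, 60.3 and 121 CPM in WT replicates 1 to 3. The libraries labelled KO were nearly equal, and WT replicate 3 was far above the rest. The log2 fold change of -0.55 (SE 0.22) did not pass the threshold (adjusted p = 0.0985 from edgeR). It was -0.20 without WT replicate 3 and -0.74 without WT replicate 2, and the latter passed (adjusted p = 0.0276), so single libraries decide this value. The log2 ratio of *F3* to *Tfpi* in FPKM, the starter of clotting over its inhibitor, was 0.31 ± 0.23 (SD, n = 3) with the KO label and 0.33 ± 0.45 with the WT label. The difference of -0.02 was within the spread (exact two-sided permutation test, p = 1).

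*Plat* (ENSMUSG00000031538, chromosome 8 from 22757744 to 22782847) stood at 53.3, 59.7 and 56.4 CPM in KO replicates 1 to 3 and at 71.8, 77.0 and 72.2 CPM in WT replicates 1 to 3. Each library labelled KO was below each library labelled WT. This was a log2 fold change of -0.38 (SE 0.06, adjusted p = 0.00288 from edgeR), or 1.30-fold lower.

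The small falls of *F3* and *Plat* depend on the scaling of the libraries. Marker scaling sets the typical cardiomyocyte or macrophage marker gene equal between libraries. With it, the median of all genes moved up by 0.38 on the log2 scale, with 8297 genes higher and 60 lower. *F3* was then at -0.12 (adjusted p = 0.458), *Plat* at -0.0023 (0.98) and *F2r* at 0.48 (1.4e-04, edgeR). The rises of *Procr*, *Thbd* and *Vwf* kept direction and threshold there.

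**Figure D3:**
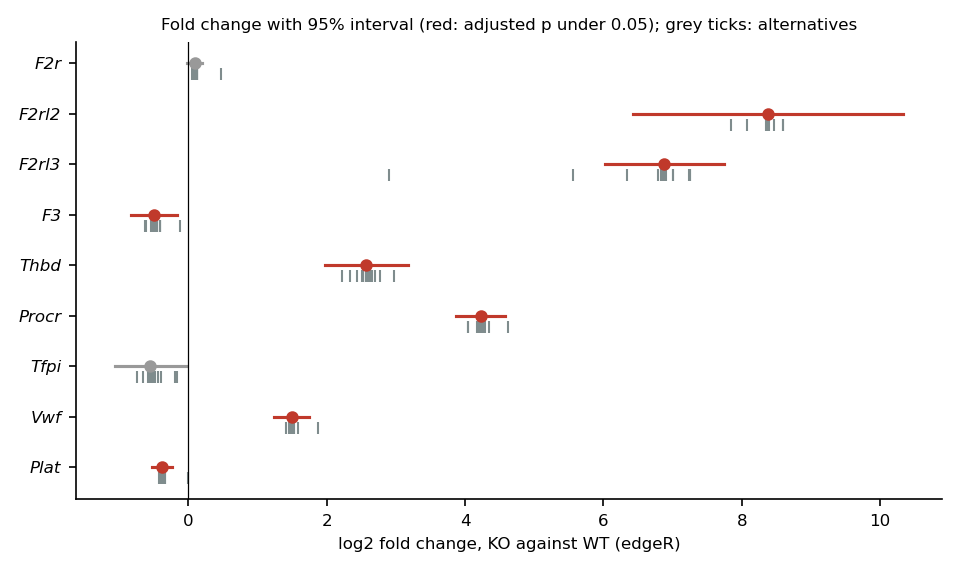
Log2 fold change, KO over WT, (x axis) from edgeR, with the 95% interval, in red where the adjusted p is under 0.05, and with grey ticks for the values under the alternatives. *F2rl2*, *F2rl3*, *Procr*, *Thbd* and *Vwf* lie right of 0 throughout, and a tick for *Plat* reaches -0.0023. The fitted values of *F2rl2* and *F2rl3* depend on the prior count and are no bound.

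Ordered by mean FPKM in the WT-labelled libraries, the genes ran *F2r* (86.9), *Plat* (28.7), *F3* (8.59), *Tfpi* (7.09), *Procr* (6.31), *Thbd* (4.92), *Vwf* (0.418), *F2rl3* (0.0520) and *F2rl2* (0). The libraries of *F3* and *Tfpi*, of *Tfpi* and *Procr*, of *Tfpi* and *Thbd*, and of *F2rl3* and *F2rl2*, overlapped, so their order is not settled. In the KO-labelled libraries the order was *Procr* (121), *F2r* (94.9), *Thbd* (30.0), *Plat* (22.6), *F2rl3* (6.92), *F3* (6.20), *Tfpi* (4.96), *Vwf* (1.21) and *F2rl2* (1.19). There *Thbd* overlapped with *Plat*, *F2rl3* with *F3*, and *Vwf* with *F2rl2*. *Procr* and *Thbd* were thus below *F3* on average with the WT label and above it in every library with the KO label.

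The libraries labelled KO also differed among themselves. KO replicate 1 stood at 1.44 times the mean of the 3 libraries labelled KO for *Thbd* and at 1.24 times for *Procr*, and KO replicate 2 was the lowest for both, at 0.727 and 0.830. The endothelial marker genes *Kdr* (1.44, 0.729 and 0.835 in replicates 1, 2 and 3), *Cdh5* (1.22, 0.821 and 0.958) and *Pecam1* (1.16, 0.827 and 1.02) had the same order of libraries. Of the whole endothelial list, 10 of 20 genes had this order, KO replicate 1 was highest in 12 and KO replicate 3 in 6, among them *Sox18* and *Robo4*, and KO replicate 1 was lowest in 2, *Eng* and *Sox17*. Among the 9 genes *F2rl3* (1.14, 0.826 and 1.03) had this order too, while *F2rl2* was highest in KO replicate 3 (2.78, 2.10 and 3.93 CPM). *Vwf* (1.04, 0.975 and 0.985) was nearly flat. *F2r* (0.957, 1.03 and 1.01), *Plat* (0.944, 1.06 and 0.999) and *F3* (17.9, 24.5 and 19.7 CPM) had KO replicate 1 lowest. Whether these spreads are linked was not tested.

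**Figure D4:**
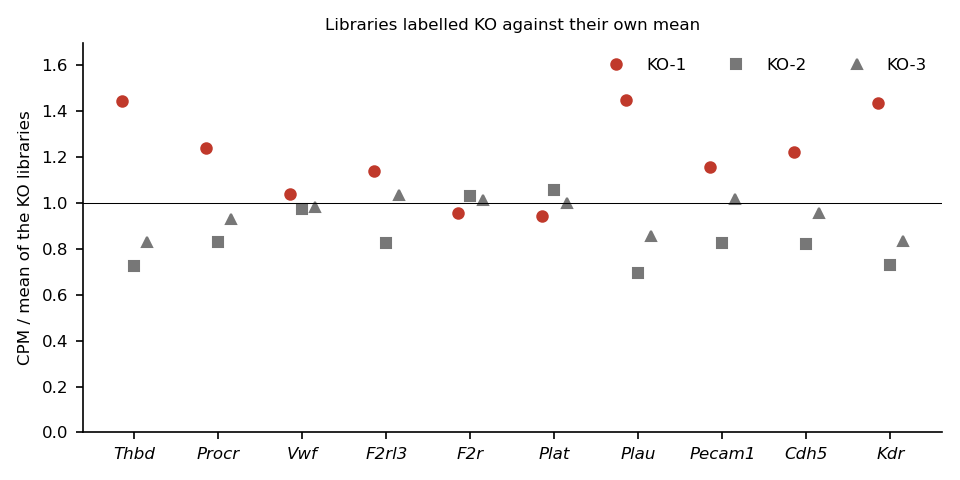
CPM of each gene in the 3 libraries labelled KO divided by their mean (y axis, from 0), with KO replicate 1 in red and replicates 2 and 3 in grey. KO replicate 1 is highest for *Thbd* (1.44), *Procr* (1.24), *Plau* (1.45), *F2rl3* (1.14), *Kdr*, *Cdh5* and *Pecam1*, by a small margin for *Vwf* (1.04), and lowest for *F2r* and *Plat*.

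Of the 20 endothelial marker genes tested, 16 were higher and 0 lower, and the median of their log2 fold changes was 2.43, against -0.02 over all genes tested. *Cldn5*, *Eng*, *Ptprb* and *Sox17* did not pass. Other cell types that carry these 9 genes were read too. The platelet and megakaryocyte list summed to 34.6 to 50.3 CPM with the KO label and 8.54 to 12.4 CPM with the WT label. Of it *Pf4*, which macrophages can also express, gave 27.2 to 38.9 CPM and 3.36 to 5.60 CPM. Of its 5 tested genes 3 were higher and 0 lower. Besides *Pf4* these were *Itga2b*, with 3.38 to 5.16 CPM against 1.82 to 2.73 CPM, and *Gp1ba*, with 20, 11 and 15 counts in KO replicates 1 to 3 and 0 in each library labelled WT. *Gp1ba* passed the filter through the KO label alone, so it had to differ to be counted. The tested genes that did not pass were *Gp1bb*, with 20, 11 and 7 counts against 23, 39 and 30 (log2 fold change -1.18, adjusted p = 0.0723 from edgeR), and *Ppbp*, with 18, 20 and 13 counts against 18, 19 and 9. Of the genes not tested, *Gp9* had 4 counts in each library labelled KO and 0, 0 and 1 with the WT label, *Gp5* had at most 3 counts in any library, and *Gp6* had 0 in all. *Clec1b* and *Treml1* were also counted but not tested. The mesothelial list, whose cells express *Procr* and *Thbd* as well, had 9 of 10 genes lower and 1 higher (*Krt19*), and summed to 492 to 557 CPM against 673 to 682 CPM. Falls of about this size were also seen in the fibroblast list (13 of 14 genes lower, 0 higher, median -0.41), the cardiomyocyte list (9 of 13 lower, 0 higher, median -0.42) and the macrophage list (7 of 13 lower, 2 higher, median -0.40), beside *Plat* at -0.38 and *F3* at -0.50. The mural list had 2 of 8 tested genes higher (*Mcam* and *Abcc9*) and 4 lower. The mast cell list summed to 50.4 to 52.2 CPM with the KO label and 16.2 to 21.4 CPM with the WT label. Of it *Gata2* gave 30.6 to 33.7 CPM and 2.87 to 4.91 CPM. *Gata2* and *Tpsab1* were higher of 3 tested and 0 lower. *Kit*, also tested, had 11.3 to 12.6 CPM against 12.8 to 16.4 CPM and did not pass (log2 fold change -0.33, adjusted p = 0.0795 from edgeR). *Cpa3*, *Fcer1a* and *Tpsb2* had 0 counts in all libraries. The neutrophil list summed to 7.2 to 10.3 CPM and 3.21 to 4.05 CPM, with *S100a8* and *S100a9* higher of 3 tested and 0 lower. *Tpsab1* and *S100a9* passed the filter through the KO label alone. Lymphocyte and erythroid genes summed to at most 1.16 and 0.450 CPM. The part of any of these cell types in the values of the 9 genes was not tested.

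The other genes of clotting and its breakdown were read as 7 lists with 88 genes beside the 9. Of these, 63 could be tested, and 12 were higher and 15 lower at an adjusted p under 0.05 (edgeR). These are 19.0% and 23.8% of the 63, where 17.7% and 12.5% of all genes tested were called. With the marker scaling 35 were higher and 1 lower, where 8297 and 60 of all 14084 genes tested were. The counts by list below are a description. Liver-made clotting factors were close to absent: of 18 coagulation factor genes only *F3*, *Vwf* and *F8* were tested. *F8*, whose factor VIII is carried by von Willebrand factor, had 120, 79 and 123 counts in the KO-labelled libraries and 24, 21 and 12 in WT-labelled ones, a log2 fold change of 2.56 (SE 0.28, adjusted p = 3.98e-04 from edgeR). It is under 1 FPKM and was named after its value was seen.

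Of 11 tested genes on the anticoagulant list, 4 were higher and 4 lower, and the median was -0.28. Whether each product on the list, such as that of *Gas6*, restrains clotting was not tested. Beside *Procr* and *Thbd* the higher ones were *Hs3st1* (0.54), which makes the heparan sulfate that binds antithrombin, and antithrombin itself (*Serpinc1*, 1.53). *Serpinc1* had 16, 11 and 12 counts in KO replicates 1 to 3 and 4, 4 and 6 in WT replicates 1 to 3, and like *F2rl2* and *F2rl3* it passed the filter on low counts through the KO label alone. The lower ones were *Serpine2* (-0.44), which encodes the thrombin inhibitor protease nexin-1, *Anxa5* (-0.29), *Gas6* (-0.28) and *Tfpi2* (-0.28).

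Of 10 tested genes of fibrinolysis, 2 were higher and 3 lower, with a median of -0.12. Urokinase (*Plau*), the other plasminogen activator, had 450, 216 and 266 CPM in the KO-labelled libraries and 21.3, 20.8 and 21.8 CPM in WT-labelled ones, a log2 fold change of 3.87 (SE 0.26, adjusted p = 3.4e-05 from edgeR). Its receptor gene *Plaur* had a log2 fold change of 0.74 (adjusted p = 4.6e-04). *Plau* and *Plat*, which act on the same substrate, thus went opposite ways, and KO replicate 1 was the highest library for *Plau*. The clearance receptor gene *Lrp1* was lower (-0.36). Plasminogen (*Plg*) had a single count, in KO replicate 1.

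Of 20 tested genes downstream of thrombin receptors, 5 were higher and 3 lower, with a median of 0.09. *Arrb1*, which encodes the β-arrestin that uncouples such receptors, had the largest rise (log2 fold change 2.11, SE 0.28, adjusted p = 9.65e-04 from edgeR), with 54.2 to 64.6 CPM against 8.96 to 21.8 CPM. *Plcb1* (1.38), a phospholipase under 1 FPKM that was named after its value was seen, came next. The G-protein gene *Gna13* (0.22), the exchange factor gene *Arhgef12* (0.23) and the kinase gene *Rock2* (0.22) rose slightly, and *Prkca* (-0.27), *Grk5* (-0.21) and *Arhgef1* (-0.19) fell slightly.

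Of 16 tested genes of the Weibel-Palade body, the granule that stores von Willebrand factor, and of its release, 2 were higher and 3 lower, with a median of -0.08. *Stxbp5* (0.93), a brake on granule release, and the granule membrane gene *Cd63* (0.18) were higher, and *Igfbp7* (-0.55), *Anxa8* (-0.50) and *Edn1* (-0.33) were lower. *Selp*, whose P-selectin shares the granule with von Willebrand factor, had 99.8 to 114 CPM with the KO label and 99.4 to 106 CPM with the WT label (edgeR, log2 fold change 0.04, adjusted p = 0.698). Of 8 tested genes for maturation of clotting factors, 0 were higher and 3 lower, which were *Lman1* (-0.25), *Furin* (-0.25) and *Tpst2* (-0.24).

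**Figure D5:**
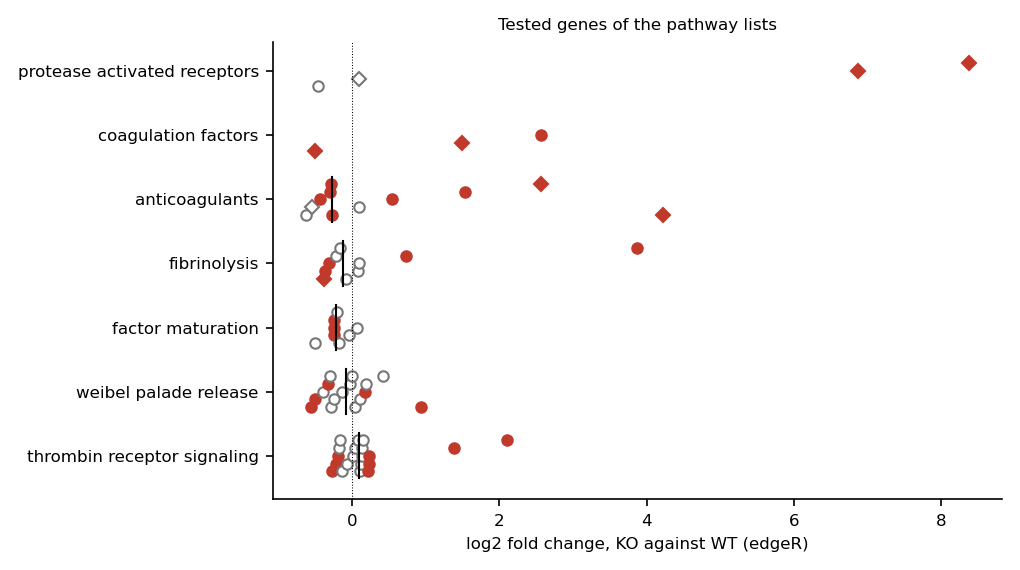
Log2 fold change (x axis) of the tested genes of the 7 lists, filled red where the adjusted p is under 0.05, with diamonds for the 9 genes and a bar at the median of lists with over 4 tested genes. Medians lie between -0.28 and 0.09 in the 5 lists with a bar, while *F2rl2*, *F2rl3*, *Procr*, *Plau*, *Thbd*, *F8* and *Arrb1* stand out to the right.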

How the data were processed

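RNA-seq was done on cardiac fibroblasts of 3 libraries labelled KO and 3 labelled WT. The authors mapped paired-end reads of stranded, oligo(dT)-enriched libraries to mm10 (GRCm38.p4 in the submitters' processing notes) with HISAT2. The counting tool, the annotation release and the strand setting are not given in the sources used here. The deposited counts are whole numbers per gene without normalization, and the deposited FPKM values divide them by gene length and library total. The study named FPKM for its comparison, and the submitters' notes name edgeR without a role.

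The test used here was glmQLFTest of edgeR 4.0.16 (R 4.3.3), two-sided, on these counts (filterByExpr, TMM, glmQLFit, Benjamini-Hochberg adjustment over 14084 genes) with all 6 libraries and no covariate. Standard errors are the log2 fold change over the square root of the F statistic. Alternatives used DESeq2 1.42.0 and limma 3.58.1 on log2(FPKM + 1) or log2(FPKM + 0.1). Shares and ratios of FPKM were compared with exact permutation tests. The limit that no count leaves is 3 counts, which is 0.249 CPM at the lowest depth. Replicates with the same label differed beyond sampling noise (21.5% to 31.1% of genes had an unadjusted p under 0.05 within a pair). On simulated data for KO against WT, 86.3% of the changed genes were called by edgeR and 5.03% of its calls were false (13935 genes). The simulation changed only 197 genes and gave every gene the same dispersion, where 4248 genes were called in the data. Its smallest fold was larger than the falls of *F3* and *Plat*. Its rates check the code and are not the rates of the calls given here.

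The 9 genes, the lists and the alternatives were chosen with earlier results of these data known. Besides the 9, the text names *F2rl1*, *F2*, *Proc*, *Pros1*, *Serpinc1*, *Plau* and *Plaur*, and from each list up to 3 rises and 3 falls past the threshold with a mean FPKM of at least 1. *F8*, *Plcb1*, *Rock2*, *Tfpi2*, *Selp*, *Plg*, *Iqgap2*, *Vkorc1* and *Vkorc1l1*, and single markers of the cell types, were named after their values were seen. Some items that this rule names, and 1 of the 7 shares and ratios, are not reported here. Plots came from Python 3.11.15 and matplotlib 3.10.9.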

Additional observations from a re-analysis of the deposited data

How the results depend on the processing

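Across 16 alternatives for the tests (14 for *Vwf*, which fell under the FPKM minimum of 1), *Procr*, *Thbd* and *Vwf* kept their direction and stayed past the threshold. The 5 higher genes became 3 with limma on log2(FPKM + 1) and on log2(FPKM + 0.1), since *F2rl2* and *Vwf* were then not tested. The 2 lower genes became 0 with marker scaling. They also became 0 when a fold above 2 was tested in addition, a size that *F3* (1.42-fold) and *Plat* (1.30-fold) do not reach. With that test 461 of all 14084 genes tested were higher and 0 lower. With each library left out in turn the lower genes among the 9 numbered 1 to 2. Without WT replicate 2 the 2 lower genes were *Plat* and *Tfpi*. The list genes beside the 9, 12 higher and 15 lower, became 35 and 1 with marker scaling and 3 and 0 with the fold above 2. Over all genes tested marker scaling gave 8297 higher and 60 lower, and the fold above 2 gave 461 and 0. The difference of the log2 ratio of *F3* to *Tfpi* turned from -0.02 to 0.08 without KO replicate 1, 0.0024 without KO replicate 3 and 0.22 without WT replicate 2, and over all 6 fits that each left out a library it ran from -0.23 to 0.22. Replicate numbers are shared by the labels. Same-numbered libraries correlated at 0.00896, 0.00944 and 0.0315, above the -0.0193 to 0.00768 of differently numbered ones. All these values were close to 0, and the libraries were not taken as pairs. With the replicate block 5 of the 9 genes were higher and 2 lower, as without it. Depth limits *F2rl2* most, with 28 to 61 counts where it was found. The causes of these changes were not tested, apart from the genes left untested.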

Other observations

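Some genes of this system varied widely between libraries with the same label. *Vkorc1*, whose enzyme recycles the vitamin K that clotting factors need, had 39.0, 40.2 and 17.5 CPM in KO replicates 1 to 3 and 50.2, 56.0 and 30.5 CPM in WT replicates 1 to 3, so the third replicate was the lowest in both labels. Its paralog *Vkorc1l1* had 35.9, 19.0 and 20.2 CPM against 12.8, 44.4 and 14.3 CPM. With the WT label *Arrb1* had 11.1, 21.8 and 8.96 CPM, where WT replicate 2 was the highest. These genes were picked after their values were seen, and nothing in the labels of the libraries sets these replicates apart.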
